A study of Mus musculus with 12 samples.

Results

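The genes described here are 7 genes of cholesterol synthesis and its control, namely Srebf2, Insig1, Hmgcs1, Idi1, Sqle, Lss and Cyp51, in bone marrow-derived macrophages (BMDMs) of wild-type C57BL/6 mice aged 8 to 12 weeks. They were taken by symbol from tables of 23361 gene symbols, and all 7 were among the 11191 rows that reached 1 FPKM (fragments of a gene per kilobase of its transcript, relative to all mapped fragments) in at least 1 of the 12 samples. The 12 RNA-seq samples formed 4 groups of 3. All cells were bone marrow cells differentiated for 6 days with L929 cell supernatant, a source of the growth factor MCSF. The control group received no further stimulus, the IL-4 group received interleukin-4 at 20 ng/ml for 24 h, the LPS group received lipopolysaccharide at 100 ng/ml for 3 h, and the IL-4+LPS group received IL-4 for 24 h and then LPS for 3 h. IL-4 is the cytokine of alternative polarization, and LPS, from the outer membrane of bacteria, triggers inflammation. The set has been named after cholesterol synthesis and uptake, but no uptake receptor is among the 7 genes, so uptake genes are given further on from a separate list.

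Cells make cholesterol from acetyl-CoA through mevalonate, isoprenoid units, squalene and lanosterol. The pathway is controlled by the transcription factor SREBP2, the product of Srebf2, which is held in the endoplasmic reticulum by its escort SCAP and the INSIG proteins while sterols are plentiful. When sterols fall, SREBP2 moves to the Golgi, is cut by site proteases, and enters the nucleus, where it activates the enzymes of the pathway, Insig1 and its own gene. In macrophages the pathway is known to respond to inflammatory and interferon signals, and the oxysterol made by CH25H holds SREBP2 back.

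Marker genes of both stimuli differed between the groups. Retnla, a marker of alternative polarization, lay between 5.91 and 19.5 FPKM in the control samples and between 11617 and 13029 FPKM in the IL-4 samples, and Tnf, an inflammatory cytokine gene, lay between 11.8 and 19.0 FPKM in control and between 1313 and 1416 FPKM with LPS. In IL-4+LPS replicates 1 to 3, Tnf read 1393, 2365 and 2346 FPKM. Il1b, a further inflammatory cytokine gene, read 1187, 2247 and 2314 FPKM in LPS and 478, 2317 and 2500 in IL-4+LPS. Replicate 1 of IL-4+LPS was thus well below the other replicates for both genes. All 6 macrophage markers were expressed, but their summed level differed with IL-4, at 19158 to 20531 FPKM in control, 7556 to 7770 in IL-4, 15380 to 16609 in LPS and 6551 to 6935 in IL-4+LPS, most of it from Lyz2. The 4 neutrophil and precursor markers with a row summed to 64.8 to 141.8 FPKM in control, 24.3 to 65.4 in IL-4, 72.2 to 181.5 in LPS and 51.4 to 127.5 in IL-4+LPS, and control and IL-4 overlapped only between 64.8 and 65.4. The 5 T and B cell markers and the 5 fibroblast markers each summed to at most 0.314 and 0.23 FPKM. The part of these differences in the results was not tested. In whole cultures, fewer cells of a type and less RNA per cell cannot be told apart. Total FPKM per sample ranged from 457583 to 495025, and relative depth, read from the lowest values and set to 1 in control replicate 1, ranged from 0.991 to 3.296, with replicate 1 the shallowest library of every group.

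The 7 genes lie on 4 chromosomes of the mm10 assembly and are protein coding in GENCODE vM21. Srebf2 is at chr15:82147269-82204960 and Sqle on the same chromosome at chr15:59315092-59331193. Insig1 is at chr5:28071412-28078662 and Cyp51, the only gene of the 7 on the minus strand, at chr5:4080674-4104697. Hmgcs1 is at chr13:119690462-119708077, Idi1 at chr13:8885606-8892396 and Lss at chr10:76531627-76553934. The RefSeq promoter table of GRCm38.p6 held a 300-base promoter, from 250 bases before to 50 bases after the start site, for 6 of the 7 (not Sqle). Promoters of 3 genes are printed because these genes rose together with IL-4 while their response to LPS differed: Hmgcs1, the only gene of the 6 with a match to the sterol regulatory element core, Idi1, which was higher with LPS, and Lss, which was lower. The Hmgcs1 window is chr13:119690101-119690400, the Idi1 window chr13:8885356-8885655 and the Lss window chr10:76531355-76531654, all on the plus strand. Capitals mark matches to the sterol regulatory element core (TCACNCCAC) and to the NF-Y box (CCAAT, or ATTGG where the match is on the other strand).
Hmgcs1: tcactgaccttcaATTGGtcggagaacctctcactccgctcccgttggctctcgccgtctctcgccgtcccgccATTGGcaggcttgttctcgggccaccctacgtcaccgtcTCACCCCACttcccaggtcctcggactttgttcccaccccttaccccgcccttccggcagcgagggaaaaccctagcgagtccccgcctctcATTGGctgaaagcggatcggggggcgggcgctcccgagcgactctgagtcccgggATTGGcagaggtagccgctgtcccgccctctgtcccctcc
Idi1: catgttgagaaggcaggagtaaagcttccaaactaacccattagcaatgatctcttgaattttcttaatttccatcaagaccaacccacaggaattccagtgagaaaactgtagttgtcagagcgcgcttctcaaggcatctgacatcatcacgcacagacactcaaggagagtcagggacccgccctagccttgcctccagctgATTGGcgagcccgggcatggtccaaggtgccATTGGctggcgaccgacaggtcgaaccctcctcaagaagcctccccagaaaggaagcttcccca
Lss: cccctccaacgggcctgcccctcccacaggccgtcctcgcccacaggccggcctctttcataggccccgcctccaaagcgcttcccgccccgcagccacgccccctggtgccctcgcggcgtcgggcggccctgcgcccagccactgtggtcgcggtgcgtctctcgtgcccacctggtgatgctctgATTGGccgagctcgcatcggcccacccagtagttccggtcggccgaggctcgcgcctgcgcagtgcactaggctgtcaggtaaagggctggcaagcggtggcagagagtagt

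Both strands were searched for 4 motifs, and no 2 matches overlapped. The sterol regulatory element core, bound by SREBPs, was found at position -137 of Hmgcs1 relative to the start site and is present in 1.24% of all 32851 promoters. The NF-Y box CCAAT, bound by a factor known to act beside SREBPs, was found in all 6 promoters and is present in 37.4% of all promoters. It occurs 4 times in Hmgcs1, at -237, -176, -45 and 10, and 2 times in Idi1, at -45 and -14. In Lss it is at -62, in Cyp51 at -29, in Srebf2 at -135 and in Insig1 at -216. The GC box GGGCGG, bound by SP factors, was also found in all 6 promoters, against 35.7% of all promoters. The E-box CACGTG was found in Insig1 only, at -101, against 7.15% of all promoters. For 12 further enzymes of the pathway a match in any listed promoter of the gene was counted, whereas the 6 genes and the shares above rest on single promoters. By this wider count the sterol core was not matched, the NF-Y box and the GC box were each matched in 11, and the E-box in 3. These letters are not in these windows where no match is given, and nothing follows from that for binding.

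**Figure D1:**
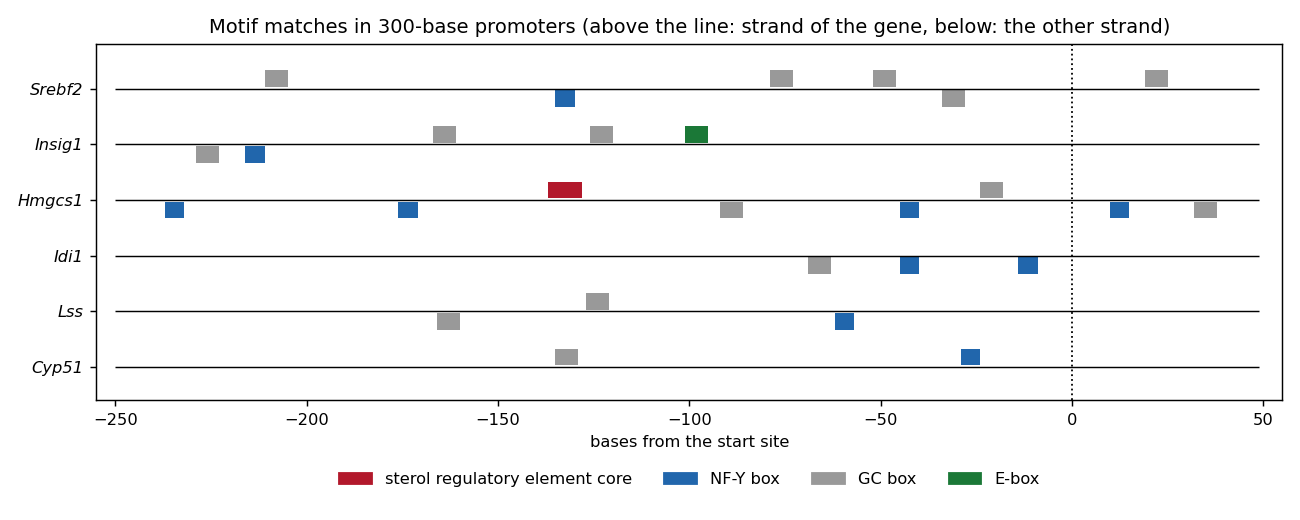
Positions of motif matches in the promoters of the 6 genes with a RefSeq entry, in bases from the start site (x axis, 250 before to 50 after). Boxes above a line are on the strand of the gene and boxes below it on the other strand, and every gene has at least 1 NF-Y box and 1 GC box while the sterol regulatory element core is matched only at -137 of Hmgcs1.

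IL-4 raised all 7 genes, whether or not LPS was added. In IL-4 against control, 7 of 7 were higher at an adjusted p under 0.05, where 16% of all tested rows were called higher and 21% lower, and the median difference of the 7 was 2.20 on the log2(FPKM + 1) scale against -0.049 for all rows. In IL-4+LPS against LPS, which shares no sample with the first comparison, again 7 of 7 were higher, where 15% of all rows were called higher and 15.8% lower, with medians of 2.11 and -0.031. Of all rows called higher by IL-4 alone, 56.3% were also called higher by IL-4 in the presence of LPS. In both comparisons each IL-4-treated sample lay above each sample without IL-4 for all 7 genes, an order found for 22.1% of all rows in the first comparison and 20.4% in the second. The 7 genes and the lists below were chosen with earlier results of these data known, so their counts are not those of a blind choice. The sum of the 7 genes was 44.7 to 64.2 FPKM in control, 235.5 to 301.1 in IL-4, 54.8 to 79.0 in LPS and 249.7 to 275.7 in IL-4+LPS. These calls held under every alternative setting and with each sample left out in turn. P-values from limma here rest on the spread between the 3 samples within a group, pooled over all groups and moderated across rows. The paper describes its RNA-seq fold changes for LPS-activated genes as averages over individual animals from independent experiments. The sample labels give a replicate number only, so the animal and the experiment of each sample are not known here.

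**Figure D2:**
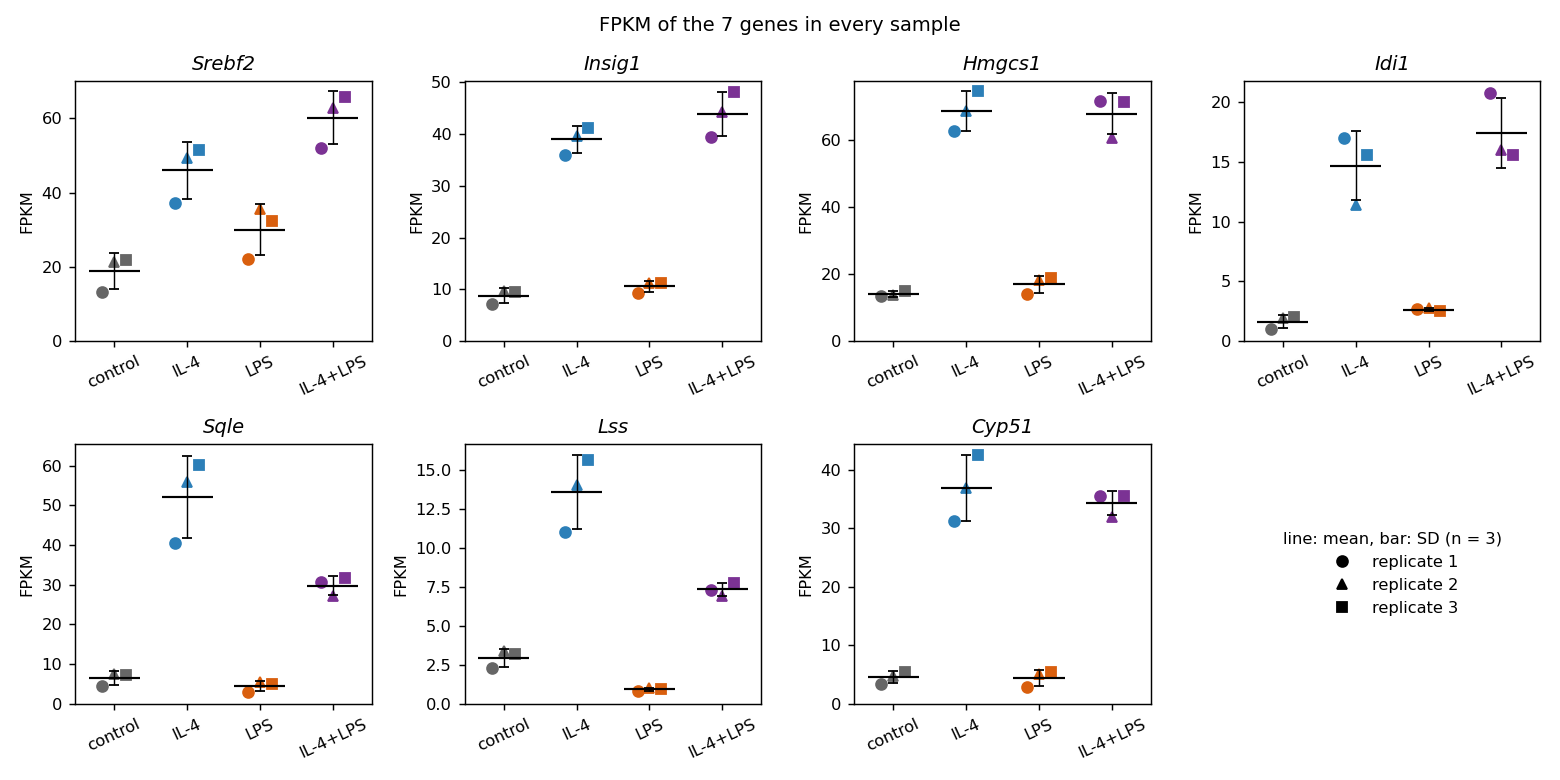
FPKM of the 7 genes (y axes, from 0) in the 12 samples by group, with a symbol for each replicate number, a line for the group mean and bars for the SD (n = 3). In every panel the 6 samples with IL-4 lie above the 6 samples without it, and Lss is lowest in the LPS group at 0.834 to 0.979 FPKM.

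Among the regulators, Srebf2, the gene of the pathway's transcription factor, read 13.2, 21.4 and 21.9 FPKM in control replicates 1 to 3, 37.1, 49.4 and 51.5 in IL-4, 22.2, 35.5 and 32.4 in LPS, and 52.1, 62.7 and 65.8 in IL-4+LPS. The 4 groups did not overlap, although LPS replicate 1, at 22.2, sat just above the highest control sample. The mean rose from 18.8 ± 4.87 FPKM (SD, n = 3) in control to 46.0 ± 7.78 with IL-4, a ratio of 2.44, and the log2 difference was 1.26 ± 0.22 (SE, limma adjusted p = 0.0014). In the presence of LPS the ratio was 2.005 and the log2 difference 1.00 ± 0.22 (limma adjusted p = 0.00617). Srebf2 had the smallest IL-4 ratio of the 7 in both comparisons, and at 18.8 FPKM it had the highest control level of the 7. Insig1, which encodes the sterol-dependent anchor of SCAP and is itself a target of SREBP2, read 7.11, 9.65 and 9.53 FPKM in control, 36.1, 39.6 and 41.2 in IL-4, 9.29, 11.2 and 11.3 in LPS, and 39.5, 44.2 and 48.1 in IL-4+LPS. The samples fell into 6 low ones without IL-4 and 6 high ones with it, and within each set the groups overlapped. The ratio of means was 4.45 for IL-4 against control, with a log2 difference of 2.04 ± 0.12 (SE, limma adjusted p = 9.86e-07), and 4.16 with LPS present, with a log2 difference of 1.96 ± 0.12 (limma adjusted p = 1.44e-06).

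Of the early enzymes, Hmgcs1, the synthase that makes HMG-CoA at the start of the mevalonate route, read 13.4, 13.8 and 15.03 FPKM in control, 62.6, 68.7 and 74.5 in IL-4, 14.1, 18.2 and 18.8 in LPS, and 71.5, 60.7 and 71.4 in IL-4+LPS. The 2 groups with IL-4 overlapped each other, and so did the 2 groups without it. IL-4 raised the mean 4.86-fold from 14.1 ± 0.824 FPKM (SD, n = 3), with a log2 difference of 2.20 ± 0.11 (SE, limma adjusted p = 3.85e-07), and 3.99-fold in the presence of LPS (log2 difference 1.94 ± 0.11). Idi1, the isomerase of the isoprenoid building blocks, was the lowest of the 7 in control, at 0.967, 1.89 and 1.99 FPKM. It read 17.0, 11.4 and 15.6 in IL-4, 2.66, 2.77 and 2.49 in LPS, and 20.8, 15.97 and 15.6 in IL-4+LPS. The IL-4 and IL-4+LPS samples overlapped, and the LPS samples lay between these and the controls. Its ratio of means was the largest of the 7 for IL-4 against control, at 9.09, with a log2 difference of 2.59 ± 0.18 (SE, limma adjusted p = 3.08e-06). The added 1 FPKM lowers that difference for a gene at this level. In the presence of LPS the ratio was 6.61 and the log2 difference 2.33 ± 0.18 (limma adjusted p = 6.68e-06).

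Of the enzymes after squalene, Sqle, the epoxidase that commits squalene to sterols, read 4.34, 7.58 and 7.18 FPKM in control, 40.5, 55.9 and 60.2 in IL-4, 2.94, 5.43 and 4.89 in LPS, and 30.6, 27.2 and 31.6 in IL-4+LPS. IL-4 alone gave the highest samples, and all IL-4+LPS samples lay below them and above those without IL-4. The ratio of means was 8.20 for IL-4 against control, with the largest log2 difference of the 7 at 2.86 ± 0.23 (SE, limma adjusted p = 6.49e-06), and 6.74 with LPS present (log2 difference 2.53 ± 0.23). Lss, the synthase that closes the sterol ring to lanosterol, read 2.26, 3.37 and 3.19 FPKM in control, 10.996, 14.01 and 15.6 in IL-4, 0.834, 0.979 and 0.962 in LPS, and 7.29, 6.93 and 7.76 in IL-4+LPS. No 2 groups of Lss overlapped. The ratio of means was 4.60 for IL-4 against control (log2 difference 1.88 ± 0.14, limma adjusted p = 3.35e-06) and 7.92 for IL-4+LPS against LPS (log2 difference 2.11 ± 0.14, limma adjusted p = 1.73e-06). Cyp51, the lanosterol demethylase, read 3.38, 4.82 and 5.40 FPKM in control, 31.3, 36.8 and 42.5 in IL-4, 2.81, 5.03 and 5.38 in LPS, and 35.5, 32.0 and 35.6 in IL-4+LPS. Its samples divided by IL-4 alone, with control and LPS overlapping and IL-4 and IL-4+LPS overlapping. The ratios were 8.13 and 7.79, and the log2 differences 2.78 ± 0.20 (SE, limma adjusted p = 3.58e-06) and 2.74 ± 0.20 (limma adjusted p = 4.07e-06).

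LPS moved the 7 genes in both directions, with differences from -1.02 to 0.65, whereas those of IL-4 ran from 1.26 to 2.86. The LPS and the IL-4 comparison share the control samples. In LPS against control, 2 genes were higher (Srebf2 and Idi1), 1 was lower (Lss) and 4 did not pass the test, where 16.9% of all rows were called higher and 57.7% lower. The median difference of the 7 was 0.24 against -0.44 for all rows, so the scale of the LPS samples matters to every LPS result. Quantile normalization moved the median of all rows to -0.12 and median scaling moved it to -0.016, with 25.9% of rows higher and 38.7% lower under the first and 31.2% and 32.5% under the second. Under each of these scalings 4 of the 7 genes were called higher (Srebf2, Idi1, Insig1 and Hmgcs1) and Lss was called lower.

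Srebf2 was 1.59-fold higher with LPS than in control, with a log2 difference of 0.65 ± 0.22 (SE, limma adjusted p = 0.0205), and all 3 LPS samples lay above the 3 controls. In this fit, which does not pair samples by number, the call was lost when certain single libraries were left out. Without control replicate 1 the difference was 0.43 (limma adjusted p = 0.0825), without LPS replicate 2 it was 0.52 (adjusted p = 0.0804) and without LPS replicate 3 it was 0.58 (adjusted p = 0.066). Between same-numbered samples, Srebf2 differed by 0.70, 0.71 and 0.54 in replicates 1 to 3. Idi1 was 1.63-fold higher, with a log2 difference of 0.50 ± 0.18 (SE, limma adjusted p = 0.0299), and the LPS samples again lay above all controls. Without control replicate 1, which was at 0.967 FPKM, the difference was 0.31 (limma adjusted p = 0.12), and without LPS replicate 1, 2 or 3 the adjusted p was 0.0627, 0.0756 or 0.0518. Between same-numbered samples, Idi1 differed by 0.90, 0.38 and 0.22 in replicates 1 to 3. Lss was 3.18-fold lower with LPS by the ratio of means, and on the log2 scale it fell by 1.02 ± 0.14 (SE, limma adjusted p = 5.06e-05), with each of the 12 samples left out in turn giving a difference between -1.15 and -0.94.

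The 4 genes that did not pass the test had intervals that included 0. Insig1 differed by 0.25 (95% interval -0.019 to 0.52, limma adjusted p = 0.0838), Hmgcs1 by 0.24 (-0.0071 to 0.50, adjusted p = 0.0726), Sqle by -0.44 (-0.95 to 0.060, adjusted p = 0.099) and Cyp51 by -0.052 (-0.50 to 0.40, adjusted p = 0.828). Replicate 1 had the lowest value for all 7 genes in control and for 6 of 7 in LPS. With the replicate number as a block in the fit, Insig1 and Hmgcs1 were called higher and Sqle lower. That made 4 of the 7 genes higher and 2 lower, where 19.4% of all rows were higher and 62.7% lower. With replicates 2 and 3 alone, a setting chosen after the data were seen, Srebf2, Insig1 and Hmgcs1 were called higher and Lss and Sqle lower. The share of all rows called in that setting was not computed, so its counts have no background beside them. Without control replicate 1 alone, Sqle was called lower at -0.66 (limma adjusted p = 0.0196), and without LPS replicate 1 alone Insig1 and Hmgcs1 were called higher at 0.33 and 0.37.

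**Figure D3:**
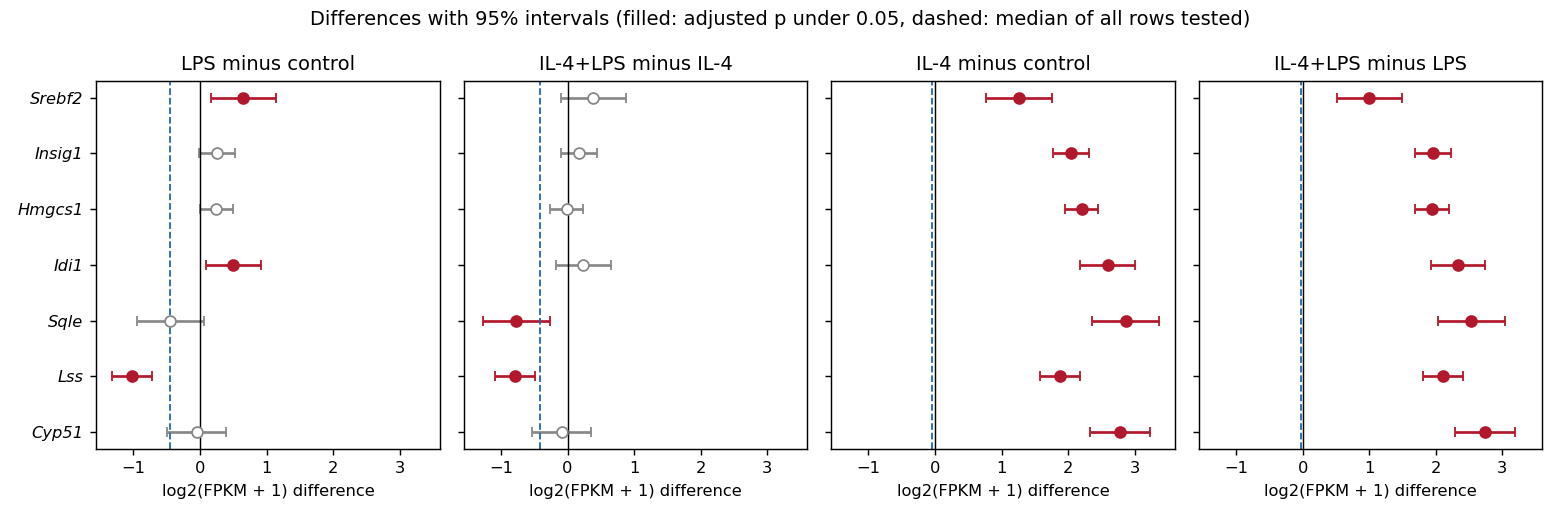
Log2(FPKM + 1) differences of the 7 genes in 4 comparisons (x axes), with 95% intervals from limma, filled red points for an adjusted p under 0.05 and open grey points otherwise, and a dashed line at the median of all tested rows. All 7 genes are filled and well to the right of the dashed line in both IL-4 comparisons, while in the LPS comparisons the points lie between -1.02 and 0.65 around a median of all rows of -0.44 and -0.41.

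The comparison of IL-4+LPS with IL-4 gives the LPS response of pretreated cells, and the genes called in it were Sqle and Lss. In IL-4+LPS against IL-4, 2 of the 7 genes were lower and none was higher in limma, where 57.9% of all rows were called lower and 15% higher. At an unadjusted p under 0.05 and by the per-gene Tukey test the count called higher was likewise 0. Sqle was 1.75-fold lower by the ratio of means, with a log2 difference of -0.77 ± 0.23 (SE, limma adjusted p = 0.0104), and Lss was 1.85-fold lower, with a log2 difference of -0.79 ± 0.14 (limma adjusted p = 0.000361). Between same-numbered samples, replicates 1 to 3 differed by -0.40, -1.01 and -0.91 for Sqle and by -0.53, -0.92 and -0.93 for Lss. Replicate 1 gave the highest such difference for these genes, Srebf2, Hmgcs1 and Cyp51, but not for Insig1 and Idi1. The median of the 7 genes was -0.015 against -0.41 for all rows. Under median scaling, which set the median of all rows to -0.026, Sqle lost its call (-0.30, limma adjusted p = 0.286) and Lss kept it. Srebf2, Insig1, Hmgcs1 and Idi1 were called higher under that scaling, where 28.1% of all rows were higher and 30.7% lower. Srebf2 differed by 0.39 (95% interval -0.10 to 0.88), Insig1 by 0.17 (-0.10 to 0.44), Idi1 by 0.24 (-0.17 to 0.65), Hmgcs1 by -0.015 (-0.27 to 0.24) and Cyp51 by -0.090 (-0.54 to 0.36).

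The interaction, which is the LPS difference after IL-4 minus the LPS difference without it, was called for 0 of the 7 genes in limma and for 0 at an unadjusted p under 0.05, where 4.58% of all rows were called higher and 4.63% lower. The 7 estimates ran from -0.33 for Sqle (95% interval -1.04 to 0.38) to 0.23 for Lss (-0.20 to 0.66), with a median of -0.26 against 0.039 for all rows. Intervals of this width do not show that the LPS response was the same with and without IL-4.

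By order of group means, Srebf2, Insig1 and Idi1 ran from control through LPS and IL-4 to IL-4+LPS. Hmgcs1 ran from control through LPS and IL-4+LPS to IL-4, and Sqle, Lss and Cyp51 ran from LPS through control and IL-4+LPS to IL-4. Neighbours in these orders that did not pass the test were IL-4 and IL-4+LPS for all but Sqle and Lss, and control and LPS for Insig1, Hmgcs1, Sqle and Cyp51. Among all expressed rows, the control mean of Idi1 was at percentile 12.5 and that of Srebf2 at percentile 69.1, and with IL-4 the 7 genes ranged from percentile 60.6 for Lss to percentile 90.3 for Hmgcs1.

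Other enzymes of the pathway followed the 7 genes with IL-4. Of 14 such enzymes, 13 were higher and 1 (Lbr) was lower in IL-4 against control, where 16% of all rows were higher and 21% lower, with a median difference of 1.42 against -0.049 for all rows. In IL-4+LPS against LPS 12 were higher, where 15% of all rows were, with a median of 1.57 against -0.031. Fdps, the farnesyl diphosphate synthase, had the largest IL-4 difference of the 14 at 2.89 ± 0.30 (SE, limma adjusted p = 4.52e-05), and Mvd, the decarboxylase that makes isopentenyl diphosphate, followed at 2.62 ± 0.13 (limma adjusted p = 3.03e-07). Ebp, a sterol isomerase, had the smallest rise at 0.44 ± 0.13 (limma adjusted p = 0.0248), which was not called without control replicate 1, IL-4 replicate 2 or IL-4 replicate 3. Lbr, a sterol reductase that also anchors chromatin at the nuclear envelope, fell by 0.58 ± 0.12 (limma adjusted p = 0.00322). Acat2, which makes acetoacetyl-CoA at the head of the pathway, was higher with IL-4 alone by 1.36 ± 0.19 but differed by -0.19 ± 0.19 (limma adjusted p = 0.5) in the presence of LPS.

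With LPS the share of enzymes called lower was close to that of all rows. Of the 14, 1 was higher (Acat2) and 9 were lower in LPS against control, where 16.9% of all rows were higher and 57.7% lower, and 8 were lower in IL-4+LPS against IL-4, where 57.9% of all rows were. Their median differences were -0.63 and -0.38, against -0.44 and -0.41 for all rows. Together with the 5 enzymes among the 7 genes, 10 of 19 enzymes were lower with LPS alone and 10 of 19 after IL-4, which is no larger a share than over all rows. The 8 enzymes lower in both were Mvk, Mvd, Lss, Tm7sf2, Sc4mol, Nsdhl, Ebp and Dhcr7, which is 80.0% of each set, where 88.4% and 88.3% of all rows called lower were shared. Quantile normalization left 7 and 6 of the 19 lower, where 38.7% and 37.3% of all rows were, and median scaling left 5 and 3, where 32.5% and 30.7% were. Called higher under quantile normalization were 4 and 1 of the 19, where 25.9% and 22.0% of all rows were. Under median scaling 3 and 5 were higher, where 31.2% and 28.1% were. Those lower under all 3 scalings were Mvk, Pmvk, Mvd, Lss and Dhcr7 with LPS alone and Mvd, Lss and Dhcr7 after IL-4. After IL-4, the calls of Acat2, Ebp and Tm7sf2 were each lost without IL-4 replicate 2 or IL-4 replicate 3 and without 1 or 2 of the IL-4+LPS replicates, and that of Sc4mol without IL-4 replicate 3, while with LPS alone that of Tm7sf2 was lost without control replicate 3 or LPS replicate 1. Dhcr7, which makes the last reduction to cholesterol, read 4.49, 6.67 and 6.07 FPKM in control, 13.2, 19.2 and 20.8 in IL-4, 1.08, 1.12 and 0.912 in LPS, and 3.56, 2.66 and 3.42 in IL-4+LPS. The 4 groups of Dhcr7 did not overlap, and its LPS differences of -1.71 ± 0.17 and -2.14 ± 0.17 were the largest of the 19 enzymes in either direction.

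**Figure D4:**
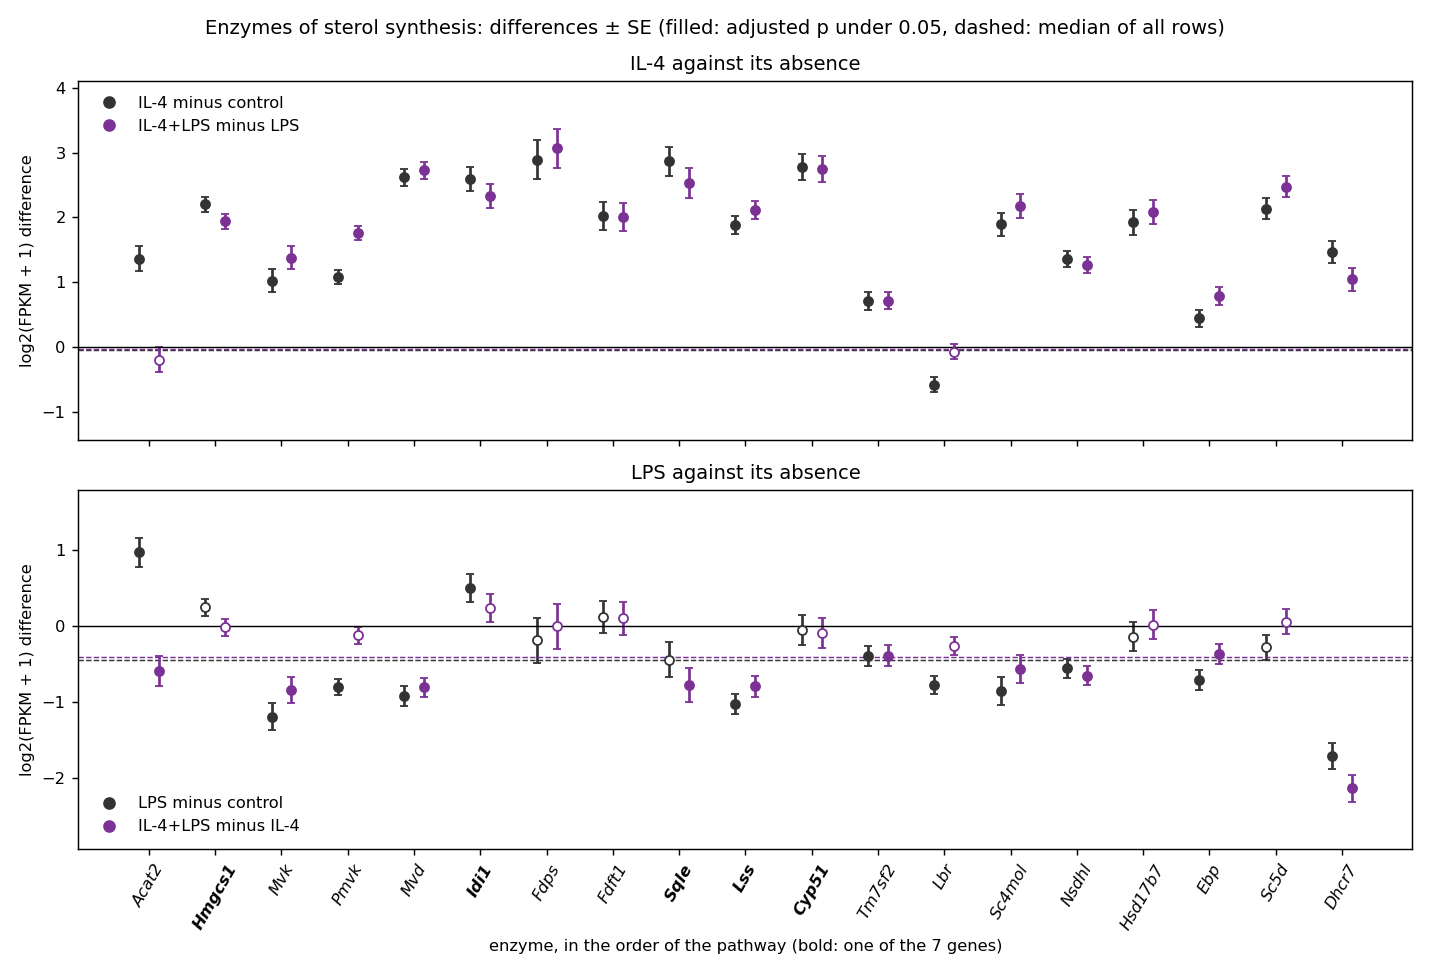
Log2(FPKM + 1) differences ± SE of 19 enzymes in the order of the pathway (x axis, the 5 that belong to the 7 genes in bold), for IL-4 in the upper panel and LPS in the lower panel, each without (dark) and with (purple) the other stimulus. Filled points passed an adjusted p of 0.05 and dashed lines mark the medians of all rows. Nearly all points of the upper panel are filled and above 0, whereas most filled points of the lower panel are below 0, with Dhcr7 lowest at -1.71 and -2.14.

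Among the other SREBP regulators, IL-4 raised 1 of 5, where 16% of all rows were called higher. Srebf1, which encodes the sister factor SREBP1, was higher with IL-4 by 0.66 ± 0.11 (SE, limma adjusted p = 0.00102). Scap, the escort, differed by -0.46 ± 0.19 with IL-4 (limma adjusted p = 0.0919). With LPS, Mbtps1 and Mbtps2, the genes of the site proteases, and Insig2, the second anchor, were lower by 0.85, 0.68 and 0.85 on the log2 scale in LPS against control, and 3 of 5 is close to the 57.7% of all rows called lower. After IL-4 all 3 were lower again, Srebf1 was lower by 0.56 and Scap was higher by 0.69, where 57.9% of all rows were lower and 15% higher. Mbtps2 was not called in either comparison under quantile normalization or median scaling, and Mbtps1 and Srebf1 were not called after IL-4 under median scaling. With LPS alone, 1 of 5 was called higher under quantile normalization, where 25.9% of all rows were. Under median scaling 2 of 5 were called higher, where 31.2% were.

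Of 7 uptake and trafficking genes past the expression filter, 2 were higher (Stard4 and Npc2) and 2 lower (Lrp1 and Mylip) in IL-4 against control, where 16% of all rows were higher and 21% lower, and the same 4 were called in the same directions in IL-4+LPS against LPS. Stard4, a cytosolic sterol carrier, read 1.61, 2.75 and 3.27 FPKM in control, 10.8, 11.5 and 12.8 in IL-4, 1.85, 2.57 and 2.19 in LPS, and 10.2, 8.99 and 9.55 in IL-4+LPS. Its samples divided by IL-4, with control and LPS overlapping, and it was higher with IL-4 by 1.87 ± 0.16 (SE, limma adjusted p = 1.21e-05). Mylip, which encodes a sterol-responsive ubiquitin ligase, was lower by 1.71 ± 0.26 (limma adjusted p = 0.000542), and Lrp1, an endocytic receptor gene, by 0.55 ± 0.11 (limma adjusted p = 0.00247). Npc2, which encodes a lysosomal sterol carrier, differed by 0.19 with IL-4 alone and was not called without control replicate 3 or IL-4 replicate 2. With LPS alone 6 of 7 were lower, where 57.7% of all rows were. The count was also 6 under quantile normalization, where 38.7% of all rows were lower, and 4 under median scaling, where 32.5% were. Under quantile normalization 1 of 7 was called higher (Stard4), where 25.9% of all rows were. Under median scaling 1 of 7 was called higher (Npc2), where 31.2% were. Without rescaling, Stard4 differed by -0.12 ± 0.16 with LPS alone (limma adjusted p = 0.509). The direction of Stard4 with LPS alone flipped to 0.46 (limma adjusted p = 0.0197) under quantile normalization and to 0.24 (limma adjusted p = 0.192) under median scaling. Npc1, the lysosomal cholesterol exporter, fell by 1.54 ± 0.10, Scarb1, a scavenger receptor gene, by 1.26 ± 0.24 and Lipa, the lysosomal acid lipase, by 1.21 ± 0.11 with LPS alone. Vldlr did not reach 1 FPKM in any sample.

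Of 4 oxysterol and cholesterol ester enzymes past the filter, Ch25h was higher and the other 3 were lower in both LPS comparisons, where 57.7% and 57.9% of all rows were lower. Ch25h, which makes an oxysterol that restrains SREBP2, read at most 0.0878 FPKM in the 6 samples without LPS, then 4.49, 6.05 and 6.52 in LPS and 5.11, 14.9 and 14.3 in IL-4+LPS. It passed the expression filter only through samples with LPS, so its place in this count was tied to its being high there. Its log2 differences were 2.66 ± 0.30 (SE, limma adjusted p = 1.51e-05) and 3.46 ± 0.30 (limma adjusted p = 2.79e-06), and IL-4+LPS replicate 1 lay well below replicates 2 and 3. Nceh1, a cholesterol ester hydrolase, was lower by 2.45 ± 0.12, Soat1, which esterifies cholesterol, by 1.86 ± 0.14 and Cyp27a1, an oxysterol-forming hydroxylase, by 1.59 ± 0.13 with LPS alone. Of 8 genes of fatty acid synthesis that SREBPs are known to activate, 6 were higher with IL-4 alone and 7 with IL-4 in the presence of LPS, where 16% and 15% of all rows were. Among these, Scd1 and Fads2 passed the expression filter only through samples with IL-4, so their place in these counts was tied to their being high there. Acss2, an acetyl-CoA synthetase, went the other way with IL-4 alone, at -0.66 ± 0.18 (SE, limma adjusted p = 0.0161), and was not called without control replicate 1 or IL-4 replicate 3. In the LPS comparisons 7 and 8 were lower, where 57.7% and 57.9% of all rows were. Scd2, a fatty acid desaturase, read 9.84, 7.86 and 8.32 FPKM in control, 104.3, 90.5 and 104.3 in IL-4, 0.770, 0.892 and 0.587 in LPS, and 26.7, 8.00 and 9.89 in IL-4+LPS. Under quantile normalization 3 and 6 of the 8 were called lower by LPS, where 38.7% and 37.3% of all rows were, and under median scaling 4 and 4, where 32.5% and 30.7% were. The call of Scd1 with LPS alone, at -0.26, was lost without any 1 control sample or without LPS replicate 3.

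**Figure D5:**
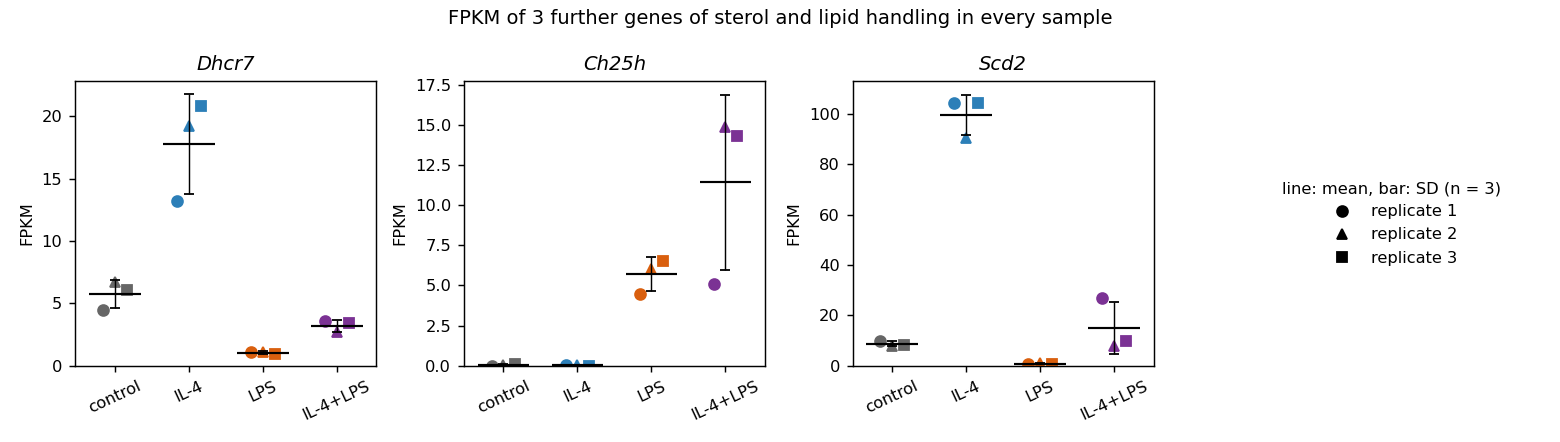
FPKM (y axes, from 0) of Dhcr7, Ch25h and Scd2, 3 genes of the further lists picked for display after their values were seen, in the 12 samples by group with the mean and SD (n = 3). Dhcr7 and Scd2 are higher with IL-4 and lower with LPS, and Ch25h is at most 0.0878 FPKM without LPS.

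The 7 genes varied together over the 12 samples. Pearson's r of log2(FPKM + 1) between each gene and the mean profile of the other 6 was 0.997 for Cyp51, 0.991 for Hmgcs1, 0.990 for Insig1, 0.965 for Idi1 and 0.964 for Sqle, and it was lower for Lss at 0.869 and Srebf2 at 0.852. These values are descriptions over 12 samples in 4 groups, so they largely repeat the difference between samples with and without IL-4. Of 11184 other expressed rows, 69 reached an r of 0.95 with the mean profile of the 7. Of the 10 highest, 9 are named here, and 4 of these are genes of sterol handling, namely Fdft1 (0.994), Fdps (0.994), Hsd17b7 (0.994) and Stard4 (0.990), which encode squalene synthase, farnesyl diphosphate synthase, a sterol ketoreductase and the sterol carrier. The other 5 were Chi3l3 (0.995), Chi3l4 (0.994), Ear11 (0.989), Fn1 (0.989) and Cyb5b (0.989). Chi3l3 and Chi3l4 encode chitinase-like proteins of alternatively polarized macrophages, with means of 29.8 and 2.98 FPKM in control and 840.2 and 89.1 with IL-4, and since these are near-identical copies their values cannot be assigned to 1 copy with certainty. Fn1 encodes fibronectin, with means of 0.241 FPKM in control and 19.5 with IL-4. Ear11 encodes a ribonuclease of a multigene family, with means of 0.282 and 296.9 FPKM, and Cyb5b a cytochrome of the outer mitochondrial membrane, with means of 19.6 and 46.3 FPKM.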

How the data were processed

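Poly-A RNA of the 12 BMDM samples was sequenced by the authors, who mapped the reads to mm10 and deposited 1 table of FPKM values per sample, with replicates kept apart. The submitters' processing notes name TopHat2 2.0.7 and Cufflinks 2.0.2, and the gene annotation is not given in the sources used here. Fragment counts are not in the tables analysed here, so absolute depth is unknown and no counting interval can be given. FPKM are relative to the fragments of each sample, so a shift of a large part of the transcriptome moves every gene.

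Rows with at least 1 FPKM in at least 1 sample were kept (11191 of 23847). Values were taken as log2(FPKM + 1), which understates the change of low genes, and the 4 group means were estimated jointly in limma 3.58.1 (R 4.3.3), with a trend of the variance on the mean level. Benjamini-Hochberg adjustment ran over all 11191 rows within each of 5 contrasts, at a threshold of 0.05, and SE and 95% intervals come from this fit on 8 residual degrees of freedom before moderation. Ratios are of group mean FPKM. The script was tested on simulated data. Genes named are the 7 members, genes of 5 lists of cholesterol and lipid handling, markers, and the 10 rows most correlated with the mean scaled profile of the members. The members and lists were chosen with earlier results of these data known. Some genes of these lists are not reported here and were left out of the list counts. Start positions were counted from 0 in the tables, and 1 was added. Motif search used Python 3.11.15. Alternatives were a pseudocount of 0.1, other filters, quantile normalization, median scaling, no trend, fits to the compared groups, a replicate block, Tukey tests per gene and leaving out each sample.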

Additional observations from a re-analysis of the deposited data

Results flagged for a closer look

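None of the 7 genes of cholesterol synthesis met a rule for a closer look, but 6 genes of the further lists did. The rule was an LPS difference on the log2(FPKM + 1) scale that changed with IL-4 pretreatment, by the limma interaction test across all 11191 rows. Scd1 and Fads2 passed the expression filter only through samples with IL-4. Their place in this test was thus tied to their being high there. In this test 4.58% of all rows were called higher and 4.63% lower. Of 14 further enzymes 1 was higher and 1 lower, and of 5 other regulators 1 was lower. Of 7 uptake and trafficking genes 1 was higher, of 8 fatty acid genes 2 were lower, and of 4 oxysterol and ester enzymes 0 were called. Acat2 had an interaction of -1.56 (adjusted p = 0.00565), with LPS differences of 0.97 without and -0.59 after IL-4, and it was called in every setting tried. Scd1 had an interaction of -0.79 (limma adjusted p = 0.00404), with LPS differences of -0.26 and -1.05. It was not called with a pseudocount of 0.1 or under quantile normalization. Its ratios of mean FPKM with LPS were close, at 0.306 without and 0.327 after IL-4. Its means without IL-4 were 0.304 FPKM in control and 0.0928 in LPS, a level at which the added 1 FPKM lowers the log2 difference. Pmvk, the kinase that makes mevalonate diphosphate, had an interaction of 0.68 (adjusted p = 0.0233), with LPS differences of -0.80 and -0.12, and it was not called under quantile normalization or without any 1 of 4 libraries, which were control replicates 2 and 3, LPS replicate 3 and IL-4+LPS replicate 3. Srebf1 had an interaction of -0.61 (adjusted p = 0.035), which was not called without any 1 of 9 of the 12 libraries or with no expression filter. Fads2, a fatty acid desaturase, had an interaction of -0.58 (limma adjusted p = 0.0246), not called without any 1 of 6 libraries, with a pseudocount of 0.1 or under median scaling. Its means without IL-4 were also under 1 FPKM, at 0.645 in control and 0.405 in LPS. Its ratios of mean FPKM with LPS were 0.627 without and 0.497 after IL-4. Npc2 had an interaction of 0.25 (adjusted p = 0.0496), not called without any 1 of 11 libraries, with a pseudocount of 0.1, with at least 1 FPKM required in 3 samples, under quantile normalization or median scaling, or with no trend of the variance.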

How the results depend on the processing

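Of 756 values of the 7 genes under the alternatives, 698 kept their direction and side of the threshold, 25 passed it only under the alternative, 15 lost it and 18 changed sign, and all calls in the 2 IL-4 comparisons were kept. In LPS against control, 1 gene was called (0 higher) with no expression filter and by the per-gene Tukey test, 1 was higher in fits to the compared groups, and 5 were called (4 higher) under quantile normalization and under median scaling. With replicates 2 and 3 only, 5 were called (2 lower), and with 1 sample left out between 1 and 4 were called, of which 0 to 3 were higher and 1 to 2 lower. In IL-4+LPS against IL-4, 5 were called under median scaling (4 higher, 1 lower), 1 was higher under quantile normalization, 4 were called with replicates 2 and 3 only (2 higher), and 1 was called, lower, by the Tukey test. Over all rows, 28.1% were higher and 30.7% lower under median scaling there, and 22.0% and 37.3% under quantile normalization. In the interaction, 1 gene was called lower under quantile normalization (Hmgcs1, -0.55), where 5.0% of all rows were higher and 5.8% lower, and 3 with replicates 2 and 3 only. Shares over all rows were not computed for replicates 2 and 3 only, 1 sample left out, no expression filter, the compared groups or the Tukey test. Counts in those settings therefore have no background here. Signs changed for Sqle in LPS against control under quantile normalization (0.055), for Cyp51 there under quantile normalization (0.50), median scaling (0.37) and replicates 2 and 3 only (0.023), with a range of -0.21 to 0.18 when leaving out 1 sample, for Hmgcs1 in IL-4+LPS against IL-4 under median scaling (0.46; -0.078 to 0.062 leaving out 1 sample), for Cyp51 there (0.38; -0.20 to 0.016) and for the interactions of Cyp51 (0.012 under median scaling; -0.27 to 0.12) and Insig1 (-0.17 to 0.044). Where a call changed for a reason other than fewer samples or more rows tested, the cause was not tested. Same-numbered samples correlated in their deviations at 0.0024 to 0.39 (mean 0.12), with 11 of 18 pairs over 0.1 and 7 of 12 samples closest to their own number. Differently numbered pairs had a mean of -0.0596, with 5 of 36 over 0.1, so same-numbered samples were more alike, but since not every same-numbered pair was over 0.1 the block was kept as an alternative. With the replicate number as a block, 6 of the 7 genes were called in LPS against control (4 higher, 2 lower), where 19.4% of all rows were higher and 62.7% lower. In IL-4+LPS against IL-4 this fit called 4 (2 higher), where 17.2% of all rows were higher and 64.4% lower. It called all 7 higher in each IL-4 comparison, where 21.5% and 20.4% of all rows were higher. The interaction was called for 0, where 10.2% of all rows were higher and 9.8% lower. Depth limits values near or under 1 FPKM, among them Lss in LPS and Ch25h without LPS.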
